A study of Mus musculus with 12 samples.

Results

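Haemoglobin and red blood cell genes were followed as 6 named genes in the deposited brain tables: the adult globin genes *Hba-a1*, *Hba-a2*, *Hbb-bs* and *Hbb-bt*, the haem synthesis gene *Alas2* and the red cell membrane gene *Slc4a1*. They were taken by name, and all 6 were present among the 50457 genes listed. Whole brains came from female C57BL/6J mice aged 8 to 12 weeks at purchase, with experimental autoimmune encephalomyelitis (EAE), an autoimmune model of multiple sclerosis. All mice had received the MOG35–55 peptide with heat-killed mycobacteria (HKMT) in CFA under the skin, without pertussis toxin. From the following day, EAE/CBD mice were given cannabidiol (CBD) by mouth at 75 mg/kg in corn oil (CO) for 5 days, and EAE/CO mice were given corn oil alone. Brains were taken on Day 18, and mice with any clinical sign were called symptomatic. By the sample labels, 3 of the EAE/CBD mice were asymptomatic and 4 symptomatic, and 3 of the EAE/CO mice were asymptomatic and 2 symptomatic, drawn from 2 cohorts. For 1 mouse, labelled EAE/CBD symptomatic, the study's own group list gives EAE/CO symptomatic instead. By that list each of the groups compared had 3 mice. Because the labels and the list differ, the place of this mouse in the pooled values is uncertain. Healthy control brains were not analysed here, and the methods do not say whether brains were rinsed of blood.

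Red blood cells carry oxygen on haemoglobin, which joins alpha and beta globin chains around haem. Globin genes are switched on in red cell precursors of the bone marrow, and young red cells enter blood without a nucleus but still carrying globin mRNA. In a whole-brain extract such mRNA can come from blood in the vessels, and low globin transcription has also been described in rodent neurons and glia. In bulk tissue, fewer cells of a type and less RNA per cell cannot be told apart.

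The values available were not values per mouse. For each gene, the authors deposited the larger of the group means of the mice compared, once for EAE/CBD (asymptomatic and symptomatic) and once for EAE/CO (asymptomatic and symptomatic). This value is called the level below. Its unit is not stated, which of the groups it belongs to was not taken from the tables, and no spread between mice comes with it. A gap between an EAE/CBD level and an EAE/CO level therefore has no error and no test, and is given as a description. The methods do not say how levels relate to gene length or whether both tables were scaled together.

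The adult globin genes lie in pairs of near-identical copies, so the sequences are shown first because they limit what each level can mean. On GRCm39, the build of the deposited gene positions, *Hba-a1* (chromosome 11, 32233672 to 32234486, plus strand) and *Hba-a2* (chromosome 11, 32246492 to 32247310, plus strand) are 12005 bases apart. *Hbb-bt* (chromosome 7, 103461731 to 103463130, minus strand) and *Hbb-bs* (chromosome 7, 103475730 to 103477135, minus strand) are 12599 bases apart. Each of these genes has 3 exons in the GENCODE annotation. The coding sequences of the alpha pair, 426 bases each without the stop codon, differed at 1 base, C381T from *Hba-a1* to *Hba-a2*. Those of the beta pair, 441 bases each, differed at 1 base as well, C417T from *Hbb-bs* to *Hbb-bt*. Positions count from 1 at the first base of the start codon. The stretches that end at the differing base are shown 5′ to 3′, coding bases 292 to 381 for the alpha pair and 328 to 417 for the beta pair, with that base in capitals.
Hba-a1: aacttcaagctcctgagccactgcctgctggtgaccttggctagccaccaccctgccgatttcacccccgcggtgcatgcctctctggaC
Hba-a2: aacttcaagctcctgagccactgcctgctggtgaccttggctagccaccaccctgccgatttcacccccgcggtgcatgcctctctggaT
Hbb-bs: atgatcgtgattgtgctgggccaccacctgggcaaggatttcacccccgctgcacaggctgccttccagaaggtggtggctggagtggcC
Hbb-bt: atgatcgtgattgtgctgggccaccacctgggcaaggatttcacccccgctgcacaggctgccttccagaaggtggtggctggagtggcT

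Reads of the study were 150 bases long, so each canonical transcript was divided into all its windows of that length. The reads came in pairs, which the windows leave out, so a pair may tell copies apart where a single read does not. Of the windows of *Hba-a1*, 62.8% (370 of 589) occurred without a mismatch in a transcript of *Hba-a2*. For *Hba-a2*, 72.1% (359 of 498) occurred in *Hba-a1*. In the beta pair the share was 55% for *Hbb-bs* (283 of 515) and 50.6% for *Hbb-bt* (281 of 555), each with the other copy. The remaining windows tell the copies apart, through bases outside the coding sequence or at the single coding difference. The methods do not say how reads that match both copies were placed, so the level of a single copy is uncertain. *Alas2* overlaps *Apex2* and *Mir3620*, and 8.63% of its windows (163 of 1888) occurred in *Apex2*. None of the 4396 windows of *Slc4a1* occurred in another gene.

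**Figure D1:**
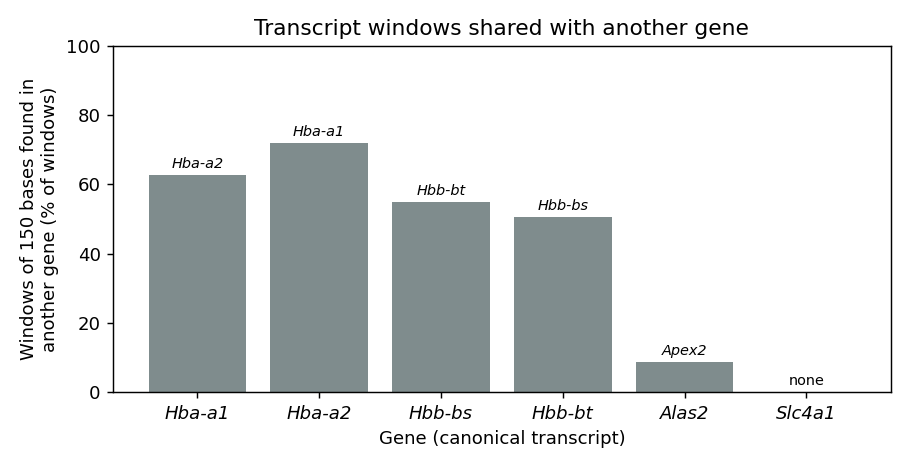
Share of the 150-base windows of each canonical transcript that occur without a mismatch in a transcript of another gene (vertical axis, % of windows), for each of the 6 genes, with that gene's name above the bar. The bars of the 4 globin genes stand between 50.6% and 72.1%, that of *Alas2* at 8.63% and that of *Slc4a1* at 0%.

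Alpha globin had the highest levels of the set. *Hba-a1*, an alpha chain gene, had a level of 647.48 in the EAE/CBD table and 543.31 in the EAE/CO table, a ratio of 1.19. Its partner copy *Hba-a2* had levels of 455.91 (EAE/CBD) and 401.91 (EAE/CO), a ratio of 1.13. Both copies were thus slightly higher in the EAE/CBD table. *Hba-a1* stood above *Hba-a2* in both tables, by 1.42 times (EAE/CBD) and 1.35 times (EAE/CO), with canonical transcripts of 738 and 647 bases.

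Beta globin differed between the copies by more. *Hbb-bs*, a gene of the adult beta chain, had levels of 422.66 (EAE/CBD) and 333.3 (EAE/CO), a ratio of 1.27. *Hbb-bt*, the other adult beta gene, had 72.65 (EAE/CBD) and 49.74 (EAE/CO), a ratio of 1.46 and the highest of the set. The lower copy thus had the greater ratio. *Hbb-bs* stood 5.82 times above *Hbb-bt* in the EAE/CBD table and 6.7 times in the EAE/CO table, with canonical transcripts of 664 and 704 bases. As a share of the summed beta level, *Hbb-bt* made up 14.7% (EAE/CBD) and 13% (EAE/CO).

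Summed over copies, alpha globin reached 1103.4 (EAE/CBD) and 945.22 (EAE/CO), a ratio of 1.17, and beta globin 495.31 (EAE/CBD) and 383.04 (EAE/CO), a ratio of 1.29. The alpha sum was 2.23 times the beta sum in the EAE/CBD table and 2.47 times in the EAE/CO table. The sums take it that the larger mean of each copy came from the same group of mice. Together the 4 globin genes made up 0.436% of all levels summed in the EAE/CBD table and 0.37% in the EAE/CO table. Those totals add the larger mean of every gene, so they need not be the total of any 1 group of mice.

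*Alas2* encodes the red cell form of 5-aminolevulinate synthase, the first and rate-limiting enzyme of haem synthesis. It lies on the X chromosome (149330413 to 149353618, plus strand) and had levels of 4.16 (EAE/CBD) and 3.19 (EAE/CO), a ratio of 1.3. *Slc4a1*, the anion exchanger band 3 of the red cell membrane, lies on chromosome 11 (102239646 to 102256107, minus strand). Its levels were 0.13 (EAE/CBD) and 0.17 (EAE/CO), so it was the single member with the lower level in the EAE/CBD table. At such levels the direction carries little weight, since reads per gene were not used here.

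**Figure D2:**
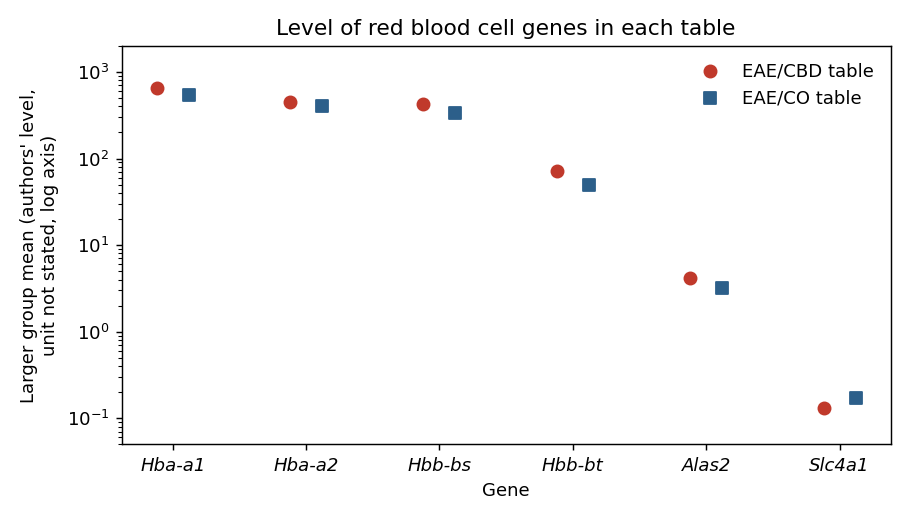
Level of each gene (vertical axis, log scale, the authors' larger group mean of unstated unit) in the EAE/CBD table (red circles) and the EAE/CO table (blue squares); no error bars are drawn, since each point is a single pooled value. The 4 globin genes and *Alas2* are higher in the EAE/CBD table, *Slc4a1* is lower and below 0.2 in both.

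To place these ratios, the same ratio was taken for every gene whose level reached 1 in at least 1 of the tables, on the scale log2(level + 0.1). This left 12927 genes and 5 of the 6 members; *Slc4a1* did not reach the minimum. Over all genes the median log2 ratio was 0.04, 10% of genes lay below -0.27 and 10% above 0.35, and 56.9% of genes were higher in the EAE/CBD table. Log2 ratios were 0.25 for *Hba-a1*, 0.18 for *Hba-a2*, 0.34 for *Hbb-bs*, 0.55 for *Hbb-bt* and 0.37 for *Alas2*, with a median of 0.34. Relative to the median of all genes these were 0.22 (*Hba-a1*), 0.14 (*Hba-a2*), 0.30 (*Hbb-bs*), 0.51 (*Hbb-bt*) and 0.33 (*Alas2*). None of the 5 was past 2-fold in either direction, where 0.704% of all genes were past it as higher and 0.178% as lower. None was past 1.5-fold either, against 3.22% (higher) and 1.72% (lower) of all genes. The ratio of *Hbb-bt* exceeded that of 96.2% of the genes compared, that of *Alas2* 91.1%, that of *Hbb-bs* 89.6%, that of *Hba-a1* 83.3% and that of *Hba-a2* 74.9%. All 5 ratios thus lay above the median of all genes, and *Hbb-bt* and *Alas2* lay above 0.35. The copies of each globin pair share sequence, and the globin genes may share a cell source, which was not tested. Their ratios therefore cannot be counted as independent of each other.

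**Figure D3:**
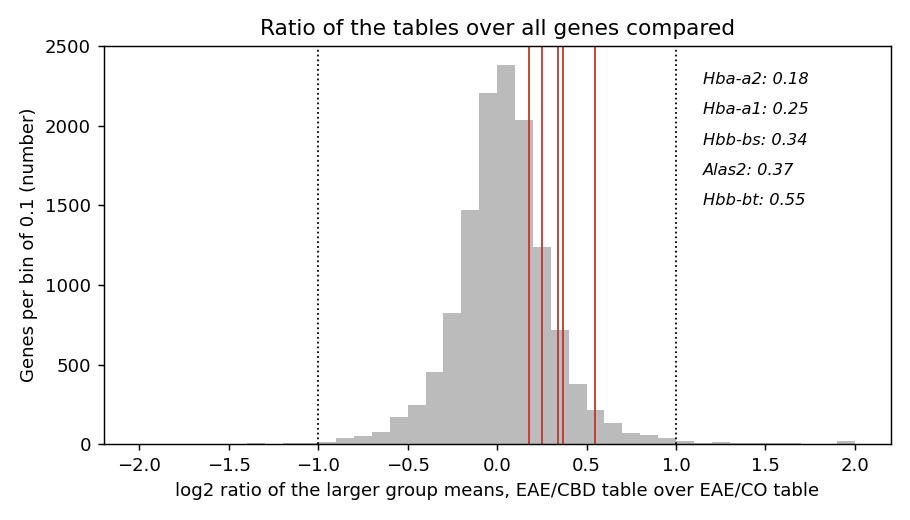
Number of genes (vertical axis) by log2 ratio of the EAE/CBD level to the EAE/CO level (horizontal axis, bins of 0.1; ratios beyond 2 in either direction stand in the end bins) for the 12927 genes compared, with red lines at the 5 members and dotted lines at 2-fold. The red lines stand between 0.18 and 0.55, right of the median of all genes and inside the dotted lines.

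The promoters are shown as a description of the genes, and any part of them in the ratios above was not tested. RefSeq promoter sequences (GRCm38.p6) were found for 5 of the 6 members; *Slc4a1* had no entry. The last 120 bases before the start site are printed 5′ to 3′ on the gene's strand, with matches in capitals to the TATAA motif of TATA boxes, the CCAAT motif, the CACCC motif of Krüppel-like factors and the GATAA motif, each on either strand. Neighbouring matches can touch or overlap. They lie at chr11:32283552-32283671 (plus), chr11:32296372-32296491 (plus), chr7:103827929-103828048 (minus), chr7:103813924-103814043 (minus) and chrX:150547297-150547416 (plus), in the order shown.
Hba-a1: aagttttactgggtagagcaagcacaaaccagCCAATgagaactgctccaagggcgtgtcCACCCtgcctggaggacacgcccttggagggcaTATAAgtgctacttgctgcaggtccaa
Hba-a2: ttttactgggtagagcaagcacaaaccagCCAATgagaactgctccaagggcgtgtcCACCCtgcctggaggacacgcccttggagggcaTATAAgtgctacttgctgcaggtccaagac
Hbb-bs: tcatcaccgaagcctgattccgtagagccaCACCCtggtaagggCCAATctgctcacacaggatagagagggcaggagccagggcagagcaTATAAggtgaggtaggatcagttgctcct
Hbb-bt: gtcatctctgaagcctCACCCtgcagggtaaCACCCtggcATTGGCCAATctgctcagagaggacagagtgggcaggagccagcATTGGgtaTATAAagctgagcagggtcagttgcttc
Alas2: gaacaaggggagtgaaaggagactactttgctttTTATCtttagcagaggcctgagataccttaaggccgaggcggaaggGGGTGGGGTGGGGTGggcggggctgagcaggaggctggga

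The alpha promoter entries shared an unbroken run of 297 of 300 bases, where the first 250 bases lie before the start site and the rest after it. In the 4 globin promoters a TATAA match began 27 (*Hba-a1*), 30 (*Hba-a2*), 29 (*Hbb-bs*) and 28 (*Hbb-bt*) bases before the start site. Each also had CCAAT and CACCC matches within the 120 bases. A GATAA match, the core of the sites that GATA factors of red cell precursors bind, was present once in the 250 bases before the start site of each of the 5 members, at 182 (*Hba-a1*), 185 (*Hba-a2*), 209 (*Hbb-bs*), 204 (*Hbb-bt*) and 86 (*Alas2*) bases before it. Of 32851 promoter windows of that length, 22.8% held TATAA, 33.8% held CCAAT, 52% held CACCC and 22.6% held GATAA on either strand. A match describes these letters and says nothing of binding.

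Of 10 genes taken as red blood cell markers, 5 reached a level of 1 in at least 1 of the tables, namely the 4 globin genes and *Alas2*. The other 5 were below 0.2 in both tables. These 5 include *Slc4a1*, *Epb42* and *Rhag*. *Epb42*, a protein that ties band 3 to the membrane skeleton, had levels of 0.00422 (EAE/CBD) and 0.00925 (EAE/CO). *Rhag*, a Rhesus-associated glycoprotein, had 0.00363 (EAE/CBD) and was listed at 0 in the EAE/CO table. Outside the 10 markers, *Gata1*, the transcription factor that directs red cell development, had 0.01 (EAE/CBD) and was listed at 0 in the EAE/CO table, and *Klf1*, the activator of adult beta globin, had 0.11 (EAE/CBD) and 0.26 (EAE/CO). *Epb42*, *Rhag*, *Gata1* and *Klf1* are named as defining genes of red cell precursors, not by the rule for named genes. The label of the set thus rests on the globin genes and *Alas2*.

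Other globin genes are used before birth or by other cells. The embryonic genes *Hba-x*, *Hbb-bh1* and *Hbb-bh2* and the gene *Hbb-bh3* were listed at 0 in both tables, and embryonic *Hbb-y* had levels of 0.13 (EAE/CBD) and 0.22 (EAE/CO). A value of 0 in these tables need not mean that no RNA was present, because all 37 mitochondrial genes were listed at 0 too. Of the theta globin genes of the alpha cluster, *Hbq1a*, which follows *Hba-a2* on chromosome 11, had 1.45 (EAE/CBD) and 0.12 (EAE/CO). Its log2 ratio was 2.82 with the pseudocount of 0.1, 1.13 with a pseudocount of 1 and 3.49 with 0.01, so its size depends on the pseudocount. *Hbq1b*, which follows *Hba-a1*, had 0.37 (EAE/CBD) and 0.34 (EAE/CO). Among globins of tissues, *Ngb*, the globin of neurons, had 9.98 (EAE/CBD) and 4.77 (EAE/CO), a ratio of 2.09. *Cygb*, a globin of fibroblast-like cells and some neurons, had 48.26 (EAE/CBD) and 36.88 (EAE/CO), and *Mb*, myoglobin of muscle, had 0.21 (EAE/CBD) and 0.15 (EAE/CO). Of the 10 other globin genes listed, 3 reached the minimum level (*Hbq1a*, *Ngb* and *Cygb*). *Hbq1a* reached it only through the EAE/CBD table, so its direction was fixed by the minimum, and *Hbb-y*, which was lower in the EAE/CBD table, did not reach it.

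The median of the other haem synthesis genes lay at that of all genes. Of 12 genes compared, 7 were higher and 5 lower in the EAE/CBD table, with a median log2 ratio of 0.04 and none past 2-fold. *Alas1*, the form of the first enzyme in other tissues, had 17.54 (EAE/CBD) and 18.46 (EAE/CO). *Cpox*, a later enzyme of the pathway, had 8.88 (EAE/CBD) and 6.99 (EAE/CO), and *Abcb10*, a mitochondrial transporter, 6.63 (EAE/CBD) and 5.22 (EAE/CO), each a ratio of 1.27. *Urod*, an enzyme of the pathway, and *Tmem14c*, a mitochondrial membrane protein, had ratios of 1.02 and 1.04.

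Genes of the red cell membrane went in both directions. Of 9 compared, 5 were higher and 4 lower in the EAE/CBD table, with a median log2 ratio of 0.03. *Sptb* (beta spectrin) and *Ank1* (ankyrin) each had a ratio of 1.18, while *Dmtn*, an actin-bundling protein, had 35.04 (EAE/CBD) and 47.59 (EAE/CO), a ratio of 0.736, and *Gypc*, glycophorin C, 1.34 (EAE/CBD) and 1.77 (EAE/CO). Of 10 genes of red cell enzymes and maturation, 7 were higher and 3 lower, with a median of 0.11. *Prdx2*, a peroxidase, had a ratio of 1.07, *Car2*, a carbonic anhydrase, 1.32 and *Cat*, catalase, 1.33.

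Transcription factor and receptor genes were few above the minimum level. Of 4 transcription factor genes compared, 1 was higher and 3 lower in the EAE/CBD table. *Lmo2* had a ratio of 1.2, *Ldb1* 0.971, *Zfpm1* 0.938 and *Bcl11a*, a repressor of embryonic globin genes, 0.692. Of 5 genes of receptors and iron uptake, 3 were higher and 2 lower. *Epor*, the erythropoietin receptor, had 2.03 (EAE/CBD) and 2.98 (EAE/CO), a ratio of 0.681. *Tfrc*, the transferrin receptor, had a ratio of 1.11, *Kit*, a receptor of blood progenitors, 1.07 and *Slc11a2*, an iron transporter, 0.925. Of 9 genes of haem and haemoglobin clearance, 6 were higher and 3 lower, with a median of 0.02. *Hmox1*, the inducible haem oxygenase, had 14.78 (EAE/CBD) and 12.42 (EAE/CO). *Fth1*, the ferritin heavy chain, had 3411.71 (EAE/CBD) and 2661.28 (EAE/CO), a ratio of 1.28. *Ftl1*, the ferritin light chain, had a ratio of 1.02, and *Slc48a1*, a haem transporter, 0.897.

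Markers of other cells in blood and vessels were read beside the globin genes. Their sums, too, take it that the larger mean of each gene came from the same group of mice. Platelet and megakaryocyte markers summed to 21.3 (EAE/CBD) and 30.9 (EAE/CO). Most of each sum came from 1 gene, *Gp1bb*, with 14.18 (EAE/CBD) and 22.51 (EAE/CO). Of 3 compared, 1 was higher and 2 lower, *Ppbp* with a ratio of 1.25, *Pf4* with 0.654 and *Gp1bb* with 0.63. Neutrophil markers summed to 79.5 (EAE/CBD) and 95.4 (EAE/CO), and 5 of 6 compared were lower in the EAE/CBD table. *S100a8* and *S100a9*, a calcium-binding pair of neutrophils, had ratios of 0.86 and 0.773, *Camp*, an antimicrobial peptide, 0.934 and *Retnlg* 0.677. Among the neutrophil markers that reached the minimum level, most were thus lower in the EAE/CBD table. Only 3 platelet markers reached that level, and these went in both directions. Below that level, markers of both lists went in both directions. The larger mean of a marker and that of a globin gene may come from different groups of mice. Brain endothelial markers summed to 129 (EAE/CBD) and 115 (EAE/CO), and 9 of 10 were higher in the EAE/CBD table with a median log2 ratio of 0.35, beside 0.34 for the 5 members. *Flt1*, a receptor of vascular growth factor, had a ratio of 1.4, *Cdh5*, the endothelial cadherin, 1.35, *Slc2a1*, the glucose transporter, 1.31, *Cldn5*, a tight junction protein, 1.03 and *Ly6c1* 0.931. The part of vessels or other cells in the globin levels was not tested.

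Markers of brain cells, checked against the tissue label, all passed the minimum level. Of 15 compared, 11 were higher and 4 lower in the EAE/CBD table, with a median log2 ratio of 0.26. *Snap25* of neurons had 687.84 (EAE/CBD) and 767.3 (EAE/CO), and *Aldoc* of astrocytes 622.44 (EAE/CBD) and 521.55 (EAE/CO). All 4 lower genes are markers of neurons, *Snap25* with a ratio of 0.896, *Syt1* with 0.728, *Slc17a7* with 0.757 and *Rbfox3* with 0.861, while *Gad1* of inhibitory neurons had 1.11. The other 10 markers, those of glia, had ratios of 1 (*Tmem119* of microglia) to 1.7. *Syt1*, *Slc17a7*, *Rbfox3*, *Gad1* and *Tmem119* were named after their values were seen. *Aqp4*, the water channel of astrocytes, had a ratio of 1.7 and *P2ry12*, a receptor of microglia, 1.51, both larger than that of *Hbb-bt*. The part of neurons and glia in the globin ratios was not tested.

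**Figure D4:**
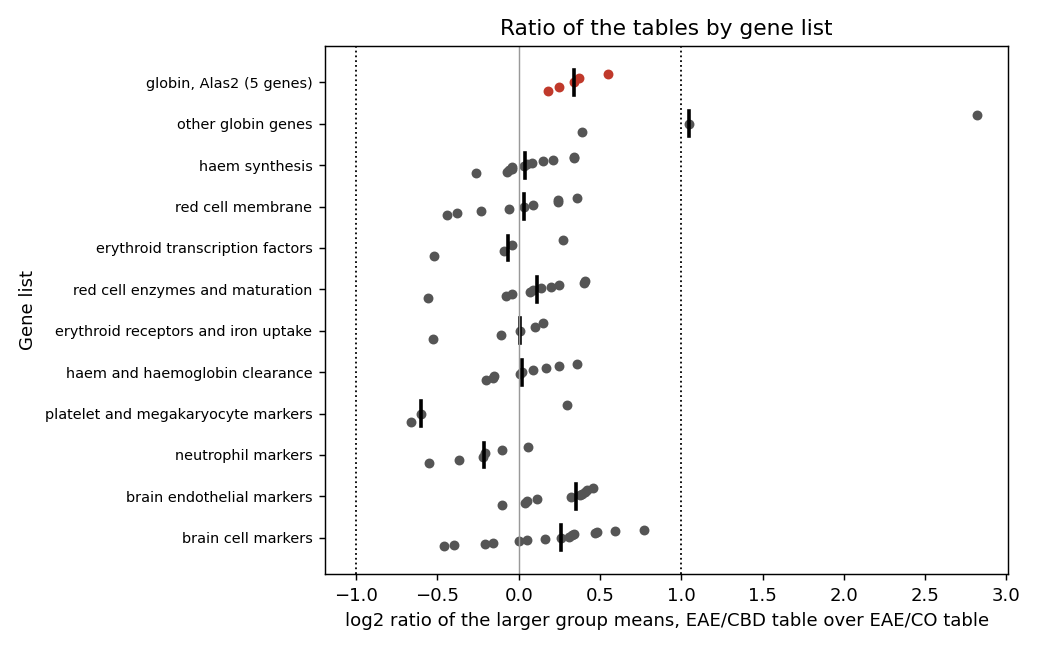
Log2 ratio of the EAE/CBD level to the EAE/CO level (horizontal axis) for each gene compared (points), by gene list (vertical axis), with the median of each list as a black bar and dotted lines at 2-fold. The top row, in red, holds the 4 globin genes and *Alas2* with a median of 0.34; brain endothelial markers have a median of 0.35, neutrophil markers one of -0.21, and *Hbq1a* and *Ngb* lie beyond 2-fold.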

How the data were processed

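RNA of 12 brains was sequenced as paired reads of 150 bases. According to the labels and the paper's methods, the authors trimmed the reads, mapped them to GRCm39 and compared groups with CLC Genomics Workbench (version not given in the sources used here), and GRCm38 also stands in the submitters' processing notes. The deposited tables hold, per gene, an expression signal called the larger group mean, made by the authors from pooled mice, without a stated unit, SD or n. They sum to 366929 (EAE/CBD) and 358949 (EAE/CO), less than CPM or TPM over all genes would give. Tables also hold the authors' fold changes, p-values and FDRs, which were not used. The labels give a nominal depth of 40000000 reads; reads counted per sample and per gene were not used here, so no interval was computed. Of 40565 genes shared with the GENCODE annotation of GRCm39, 99.936% had the same place and strand.

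Levels were read from 3 tables (EAE/CBD once, EAE/CO in both directions, with 0 differing levels) with pandas 2.3.3. Genes whose level reached 1 in at least 1 table were compared on log2(level + 0.1), and ratios past 2-fold were counted. No test was made. The counting was run on simulated levels with 200 genes changed well past 2-fold, which checks the counting but not ratios as small as those of the members. Windows and motifs were found as exact matches. Members and 11 gene lists were chosen with earlier results of these data known. Named genes were the 6 members, the other globin genes, and per list the 3 with the highest EAE/CBD level and the 2 with the largest log2 ratio in size; defining markers were added, and the values of some list genes are not reported here. Alternatives were other pseudocounts (1, 0.01), minimum levels (none, 5), centring on the median, the other EAE/CO table and a 1.5-fold limit.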

Additional observations from a re-analysis of the deposited data

How the results depend on the processing

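With 2-fold as the limit, 91 genes were higher and 23 lower in the EAE/CBD table. A pseudocount of 1 left 38 higher and 6 lower, no minimum level gave 263 higher and 116 lower, a minimum level of 5 gave 31 higher and 9 lower, and a 1.5-fold limit gave 416 higher and 222 lower. No minimum level adds genes near 0, and a minimum of 5 compares fewer genes. Across these alternatives, the count of members past the limit was 0 in each direction, and *Alas2* could not be compared at a minimum of 5. The log2 ratios of the 4 globin genes and *Alas2* stayed positive under every alternative that compared them, and moved by less than 0.1. Both EAE/CO tables gave the same levels. *Slc4a1* entered only without a minimum level, with a log2 ratio of -0.23. Leaving out single mice was not possible, because only pooled values were used. No paired analysis was possible because there are no values per mouse. The log2 ratio of *Hbq1a*, tried after seeing the data, was 2.82 as compared above, 1.13 with a pseudocount of 1 and 3.49 with 0.01. Reads per gene were not used here, so low levels such as those of *Slc4a1* and *Hbq1a* carry no error.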
